A study of Mus musculus with 2 samples.

Results

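Open chromatin of the right cerebral cortex gathered, at 429 places on the autosomes, into dense runs of accessible regions that lay away from the transcript starts of the GENCODE annotation. These clusters were taken from DNase-seq, which cuts nuclear DNA with the enzyme DNase I and reads out the stretches that the enzyme can reach. They held 2472 of the 45245 autosomal distal regions found open in both libraries, 5.46% (exact 95% interval 5.26% to 5.68%). Members were chosen by position among regions called open in both libraries, so peak calling also enters the choice. The shorter peak list of each library was taken, overlapping peaks of the libraries were merged, and 64789 of 105529 merged regions held a peak of each. A region was distal when it stayed clear of the 500 bp on either side of the start of any GENCODE M21 transcript. Neighbours no more than 12500 bp apart were joined, and joined groups of 5 or more regions were kept. The number of regions per cluster and their closeness are therefore set by the rule and are given as descriptions, with no test.

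The tissue came from female B6CASTF1/J mice, first-generation hybrids of C57BL/6J and CAST/EiJ, at 18 to 20 months of age. There was 1 group of 2 biological replicates, with no treatment named and no second condition. The labels give the same donor identifier for both replicates, and nothing says whether they were separate animals, so the spread between them may be technical. In bulk tissue a region open in fewer cells and a region less open in each cell cannot be told apart. Promoters of 17 of 17 pan-neuronal genes were open in both libraries, against 0 of 14 hepatocyte genes and 1 of 17 striated muscle genes. Of all autosomal protein-coding genes 59.1% were open there, and of housekeeping genes 13 of 13. The counts were 13 of 17 for excitatory and 8 of 17 for inhibitory neurons, and 11 of 16 for astrocytes. They were 7 of 15 for oligodendrocytes, 7 of 10 for their precursors, 6 of 18 for microglia, and 5 of 16 for endothelial and mural cells. The peak value used throughout is the deposited signal of a peak. It came in whole steps that would put the libraries at 201 M reads (M for mega, replicate 1) and 112 M reads (replicate 2) if 1 step is 1 read scaled to the library's size. The median member would then hold 209 reads in replicate 1 (182 to 239) and 161 reads in replicate 2 (137 to 188), with exact 95% Poisson bounds that cover counting error only.

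As background, gene-distant DNase-sensitive sites include enhancers, which are stretches bound by transcription factors that raise the activity of a gene from a distance, and also insulators, unannotated promoters and genes of small RNAs. Enhancers that lie close together are often described as enhancer clusters or super-enhancers. Those terms rest on histone marks or coactivator binding. No such mark was measured here, so the groups are called clusters of distal open regions. tRNA genes are short genes transcribed by RNA polymerase III from promoter elements inside the gene, and in mammals they often lie in runs, the largest of them beside histone genes.

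The sequences below are the strongest member regions, by the mean of both libraries, of 5 clusters with high summed values, or the middle 300 bases where a region is longer, and 2 tRNA regions. They are shown because they give the 2 kinds of region that the clusters held. All are from RefSeq GRCm38 (the assembly mm10), plus strand, 5′ to 3′. In the first 2 the capitals mark a tRNA gene, and in the others they mark a match to a searched motif. The first lies at chr11:69041681-69041920 and holds n-TWcca7, a tryptophan tRNA gene on the plus strand, with peak values of 2.73 and 5.02 in replicates 1 and 2.
n-TWcca7: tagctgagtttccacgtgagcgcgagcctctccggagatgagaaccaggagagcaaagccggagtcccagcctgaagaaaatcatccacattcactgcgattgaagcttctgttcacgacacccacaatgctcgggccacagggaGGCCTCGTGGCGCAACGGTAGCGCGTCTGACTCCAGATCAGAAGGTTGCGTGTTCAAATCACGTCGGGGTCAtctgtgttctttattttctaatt
The second lies at chr19:12005971-12006270 and holds n-TKctt29, a lysine tRNA gene on the plus strand, with values of 1.74 and 2.79 in replicates 1 and 2.
n-TKctt29: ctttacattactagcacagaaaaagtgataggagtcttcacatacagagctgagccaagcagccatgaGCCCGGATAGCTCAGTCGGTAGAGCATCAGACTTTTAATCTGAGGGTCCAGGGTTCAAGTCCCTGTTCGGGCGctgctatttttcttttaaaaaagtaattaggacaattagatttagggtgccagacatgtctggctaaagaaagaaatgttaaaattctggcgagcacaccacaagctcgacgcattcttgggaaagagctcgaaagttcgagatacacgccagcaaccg

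The other regions shown hold no annotated gene of a small RNA. The region at chr12:86801261-86801560, between Lrrc74a and Irf2bpl, had values of 2.82 in replicate 1 and 3.50 in replicate 2. Its capitals mark the AP-1 letters (TGANTCA) and the NFI letters (CTTGGCA).
Lrrc74a to Irf2bpl: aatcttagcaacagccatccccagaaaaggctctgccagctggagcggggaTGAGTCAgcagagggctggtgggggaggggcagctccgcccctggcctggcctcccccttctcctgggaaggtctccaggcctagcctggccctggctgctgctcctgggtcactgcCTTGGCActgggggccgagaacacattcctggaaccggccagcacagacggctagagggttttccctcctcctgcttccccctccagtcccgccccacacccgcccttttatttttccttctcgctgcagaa
The region at chr4:138504711-138505010 had 3.32 and 2.63 in replicates 1 and 2. Its capitals mark the RFX letters (GTTGCCATG) on the minus strand, at the right end of the window.
Camk2n1 to Vwa5b1: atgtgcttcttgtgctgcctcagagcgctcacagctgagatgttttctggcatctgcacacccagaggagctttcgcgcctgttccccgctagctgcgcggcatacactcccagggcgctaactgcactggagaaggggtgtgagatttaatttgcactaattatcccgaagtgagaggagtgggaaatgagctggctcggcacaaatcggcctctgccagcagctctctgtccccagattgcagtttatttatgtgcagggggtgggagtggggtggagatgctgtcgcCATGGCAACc
The region at chr2:30692261-30692500 had 3.20 and 4.58 in replicates 1 and 2. Its capitals mark the neuronal E-box letters (CAGATGG), bound by bHLH factors of neurons, on the minus strand.
Cstad to 1700001O22Rik: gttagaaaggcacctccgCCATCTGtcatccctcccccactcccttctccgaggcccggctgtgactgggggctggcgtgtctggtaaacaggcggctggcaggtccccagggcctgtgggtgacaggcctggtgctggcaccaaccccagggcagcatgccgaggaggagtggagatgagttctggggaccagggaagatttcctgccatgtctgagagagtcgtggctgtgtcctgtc
The regions at chr11:98773871-98774170, in an intron of Nr1d1, and at chr19:5803501-5803780, near Malat1, held none of the 12 searched motifs. Their values were 6.37 and 7.99 at Nr1d1 and 4.12 and 6.21 near Malat1, in replicates 1 and 2.
Nr1d1 intron: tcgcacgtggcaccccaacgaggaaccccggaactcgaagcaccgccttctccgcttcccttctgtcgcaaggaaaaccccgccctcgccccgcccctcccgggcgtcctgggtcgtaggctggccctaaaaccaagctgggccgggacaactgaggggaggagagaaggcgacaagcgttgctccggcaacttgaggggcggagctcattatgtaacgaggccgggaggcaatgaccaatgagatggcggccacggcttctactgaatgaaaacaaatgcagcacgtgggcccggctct
near Malat1: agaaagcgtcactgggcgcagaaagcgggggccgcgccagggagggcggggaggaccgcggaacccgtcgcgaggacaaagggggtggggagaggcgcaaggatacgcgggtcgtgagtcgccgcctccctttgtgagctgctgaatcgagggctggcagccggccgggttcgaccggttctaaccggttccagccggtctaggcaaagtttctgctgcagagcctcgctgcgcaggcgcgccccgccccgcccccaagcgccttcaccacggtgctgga

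Most clusters were near the minimum size. There were 249 clusters of 5 regions, 106 of 6, 40 of 7, 17 of 8 and 9 of 9, and 8 clusters held 10 or more. Outside the clusters, 21249 regions were in groups of 2 to 4 and 21524 stood alone. The clusters spanned a median of 20.3 kb (quartiles 14.3 and 28.3 kb, range 3.14 to 66.4 kb) and together covered 9.39 Mb, 0.381% of the autosomes. Neighbouring members were a median of 3300 bp apart (quartiles 862 and 7211 bp). Of the 2043 gaps, 99 in 91 clusters were 100 bp or less, so that some neighbours may be pieces of 1 broader region. The count of clusters depended strongly on the rule. It was 1141 without replicate 1 and 1335 without replicate 2, since regions then did not have to be seen in both libraries.

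**Figure D1:**
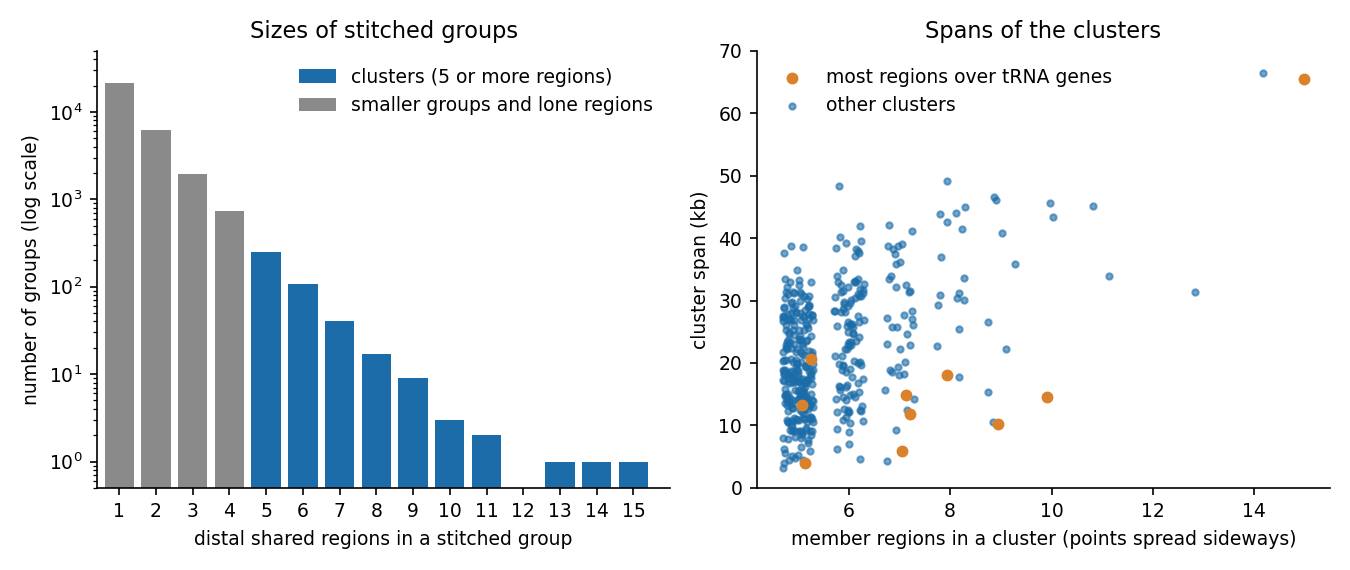
Left, number of stitched groups (log scale) by the number of distal shared regions they hold, with clusters of 5 or more in blue. Right, span of each of the 429 clusters in kb against its number of regions. Larger groups were rarer, with 725 groups of 4 and 249 of 5, and there was no break at the minimum of 5.

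Clusters were found on all 19 autosomes. Chromosome 11 was the densest with 42 clusters (34.4 per 100 Mb), and 8.54% of its distal regions were members. Chromosome 14 was the sparsest with 12 clusters (9.61 per 100 Mb). Of all clusters, 127 (29.6%) lay wholly in the body of 1 protein-coding gene, 160 (37.3%) overlapped none, and 142 (33.1%) lay partly in genes. Promoter regions open in both libraries fell inside the span of 108 clusters (25.2%). Distal regions seen in 1 library only were also frequent in the spans, at 47.0 per Mb of span against 13.3 per Mb of the rest of the autosomes. The spans were chosen for closely spaced peaks of the same lists, so this is given as a description, with no test.

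The summed peak value of a cluster had a median of 6.60 in replicate 1 (range 2.06 to 23.0) and 9.36 in replicate 2 (range 2.41 to 40.4). Members held 7.36% of the summed value of all autosomal distal shared regions in replicate 1 and 7.23% in replicate 2, from 5.46% of the regions. The sums were spread over several regions. The strongest member gave a median of 29.3% of the sum in replicate 1 and 29.7% in replicate 2, and at most 66.2% and 65.8%. The 43 highest clusters of each library, of 429, held 20.1% and 20.4% of the members' summed value in replicates 1 and 2. Larger clusters also had higher sums per region, with all peaks of a region counted. The median of the sum divided by the number of regions was 1.41 in replicate 1 and 1.94 in replicate 2 for the 34 clusters of 8 to 15 regions. It was 1.21 and 1.77 for the 146 clusters of 6 or 7, and 1.10 and 1.52 for the 249 clusters of 5.

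**Figure D2:**
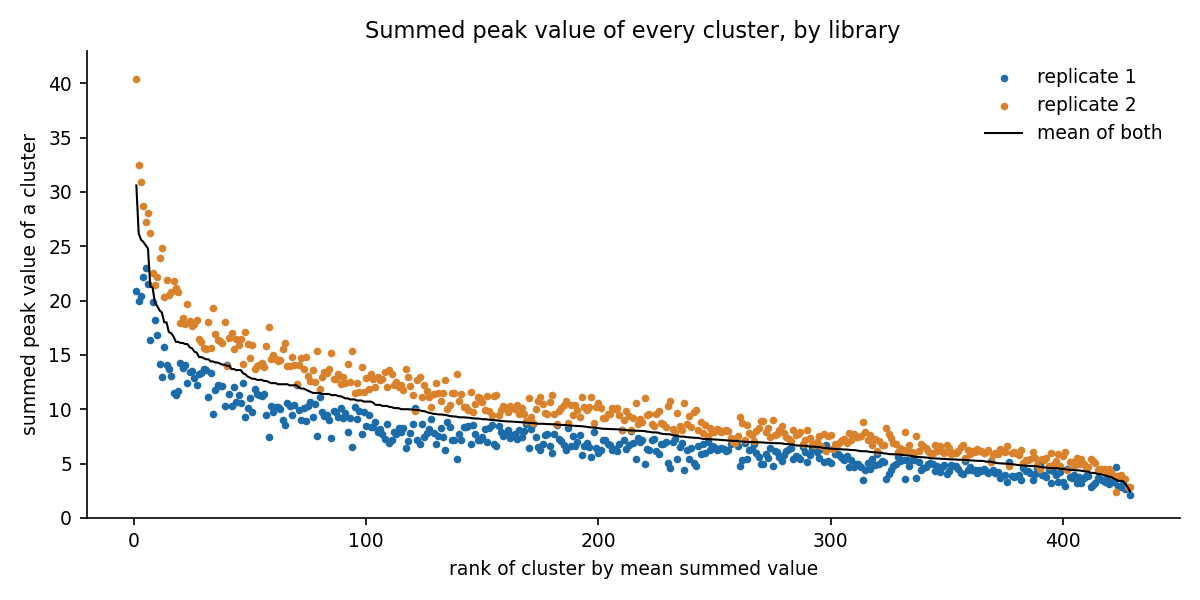
Summed peak value of each cluster, ordered by the mean of both libraries (black line), with replicate 1 in blue and replicate 2 in orange. Sums run between 2.06 and 23.0 in replicate 1 and between 2.41 and 40.4 in replicate 2, and orange points lie above blue ones in 418 of 429 clusters.

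The cluster with the most regions and the highest mean sum was a run of tRNA genes. It lay at chr13:23401721-23467180, between the start sites of Zfp322a and Btn2a2, and had 15 regions over 65.5 kb, of which 11 lay over tRNA genes. Its summed value was 20.9 in replicate 1 and 40.4 in replicate 2, a mean of 30.6 ± 13.8 (SD, n = 2). Values of its regions ran from 0.686 to 2.30 in replicate 1 and from 1.26 to 4.66 in replicate 2. All 15 were higher in replicate 2.

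The second by size was intergenic and lay at chr4:138495881-138562280, 41.6 kb from the nearest start site of Camk2n1, which encodes an inhibitor of the kinase CaMKII, and 18.8 kb from that of Vwa5b1. It had 14 regions over 66.4 kb, the longest span of all, and no tRNA gene. In genomic order the values in replicate 1 were 1.33, 3.32, 1.24, 1.40, 1.67, 1.39, 2.25, 1.89, 2.34, 0.929, 1.10, 1.64, 1.17 and 1.33. Replicate 2 had 1.27, 2.63, 1.84, 1.76, 2.09, 1.65, 2.20, 2.53, 2.07, 1.15, 1.64, 2.01, 1.16 and 3.22 at the same regions. The second region was the strongest in replicate 1 and the last in replicate 2, and the last was also the one that differed most between the libraries. The sum was 23.0 in replicate 1 and 27.2 in replicate 2.

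Another large cluster, at chr12:86795950-86827280, lay in the interval between Lrrc74a (54.9 kb away) and Irf2bpl (57.5 kb away), a gene for a nuclear regulator of the IRF2-binding family. It had 13 regions over 31.3 kb, and its sum was 20.0 in replicate 1 and 32.5 in replicate 2. The second region from its left end had 1.25 in replicate 1 and 4.71 in replicate 2, and the third had 2.82 and 3.50, so that the order of the strongest regions differed between the libraries. A related gene of the same family had clusters too. At chr8:126497621-126543720, between Tarbp1, an RNA methyltransferase gene, and Irf2bp2, 9 regions summed to 16.8 and 22.2 in replicates 1 and 2, with 4.93 and 5.15 in the strongest. The nearest coding start site there was that of Tarbp1 (22.6 kb), and Irf2bp2 (50.3 kb) was the nearest coding gene or host of 2 further clusters.

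Few regions with high values made up the cluster at chr11:98773841-98796880. It ran over 23.0 kb between Nr1d1, which encodes the clock repressor REV-ERB alpha, and Msl1, which encodes the scaffold of a histone acetyltransferase complex. Its 7 regions in genomic order had 6.37, 1.96, 4.54, 1.76, 2.88, 2.01 and 0.865 in replicate 1, and 7.99, 2.46, 7.69, 2.86, 5.52, 2.89 and 1.47 in replicate 2. The sum was 20.4 in replicate 1 and 30.9 in replicate 2, the third highest by mean. The region in the Nr1d1 intron was the strongest in both libraries. The span also held 2 shared promoter regions, and the promoter of Nr1d1 itself had 7.15 and 10.6 in replicates 1 and 2.

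**Figure D3:**
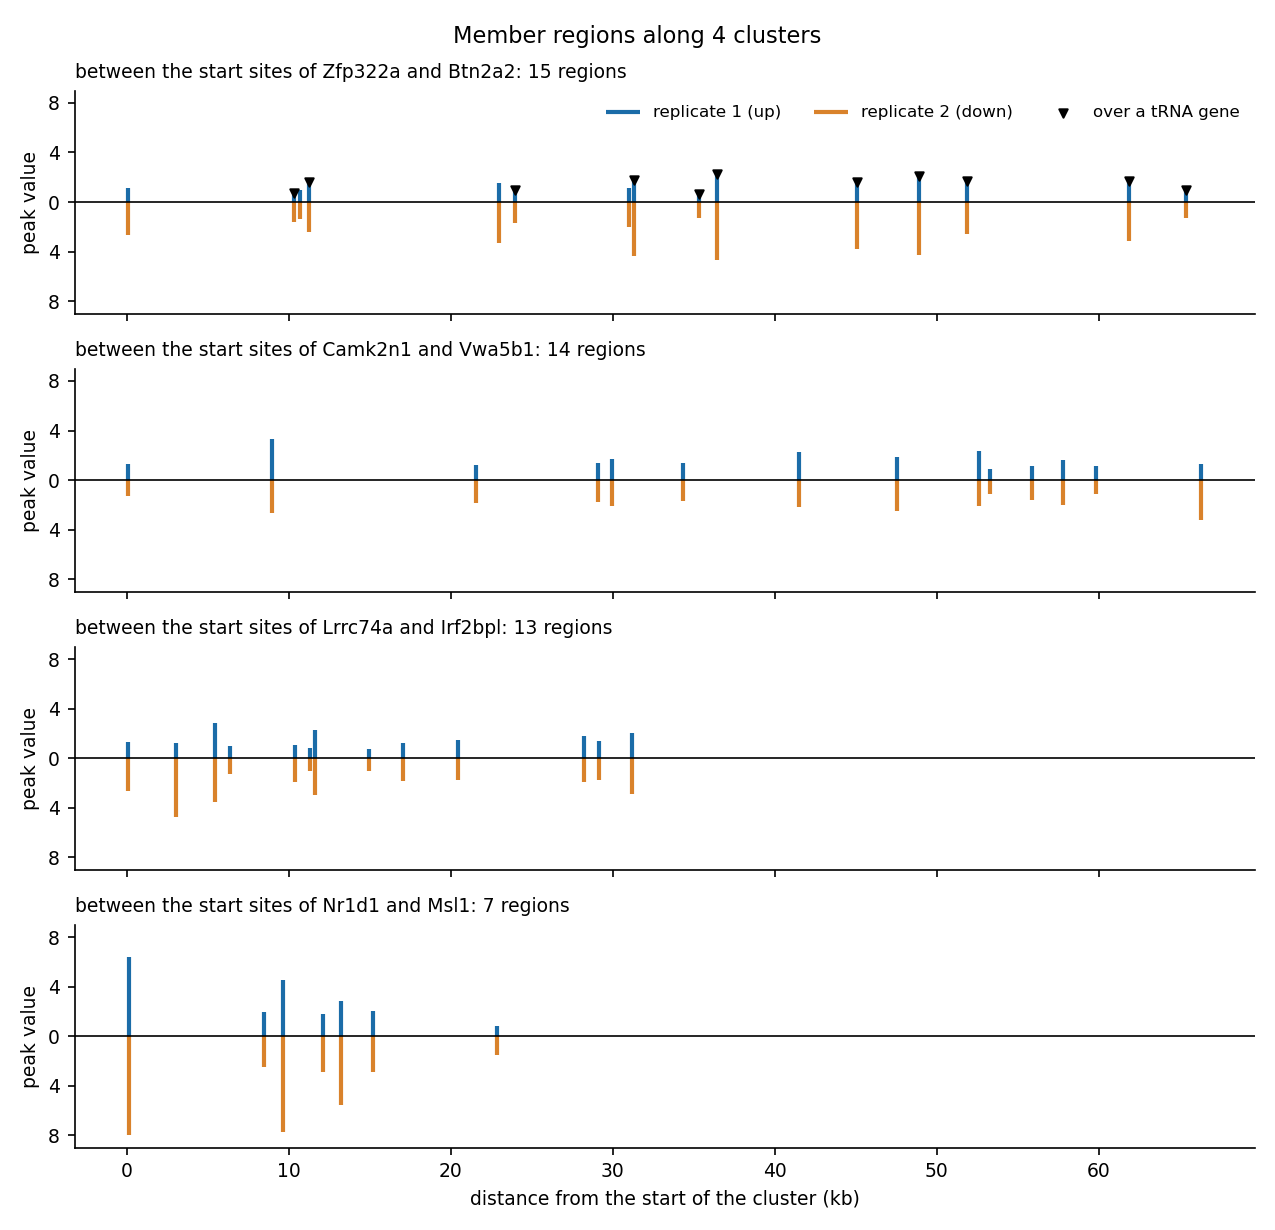
Peak value of each member region along 4 clusters, by distance from the cluster's start in kb, with replicate 1 drawn upward and replicate 2 downward on the same scale; triangles mark regions over tRNA genes. The tRNA run near Zfp322a is higher in replicate 2 at all 15 regions, and the cluster across Nr1d1 and Msl1 reaches 6.37 and 7.99 at its first region.

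Other named clusters lay by genes of varied kinds. At chr2:30677041-30722240, far from coding starts and over the noncoding genes 9330198N18Rik and Gm14486 and the microRNA gene Mir3089, 11 regions summed to 22.2 in replicate 1 and 28.7 in replicate 2, with a mean GC content of 63.3%. At chr19:5786521-5822457, around Malat1, a long noncoding RNA kept in the nucleus, 9 regions summed to 21.5 and 28.1 in replicates 1 and 2. At chr9:27175281-27209180, 19.9 kb from Jam3, a junctional adhesion molecule gene, and 90 kb from Igsf9b, an adhesion gene of inhibitory synapses, 11 regions summed to 18.2 and 21.4. At chr7:16913903-16957233 10 regions over and beside the calmodulin gene Calm3 summed to 14.2 and 23.9. At chr5:118321854-118367444 10 regions summed to 10.3 and 14.0, with no coding start site within 76.6 kb. The longest clusters after the first 2 were at chr10:59920881-59970060 (49.2 kb, 8 regions, 1 of them in the stress-response gene Ddit4), chr7:108991301-109039699 (48.4 kb, 6 regions, 5 of them in Tub) and chr17:5249372-5295980 (46.6 kb, 9 regions, all in Arid1b, a subunit gene of BAF chromatin remodellers).

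The strongest member of all lay at chr11:3127121-3127300, with 9.63 in replicate 1 and 11.5 in replicate 2, 48.4% and 51.1% of its cluster's sum. This cluster of 5 regions, at chr11:3123241-3132320 beside Sfi1 and over the pseudogene Pisd-ps1, summed to 19.9 and 22.5 in replicates 1 and 2. It was not unique in sequence: on average 61.6% of its 32-base words also occurred elsewhere in the assembly, and 3 of 5 regions passed 50%. Reads from copies of such sequence cannot be told apart, and their part in these values was not tested. Over all members the mean was 1.27%, and 12 of 2472 (0.485%) passed 50%, against 1.01% and 217 of 42773 (0.507%) among the other distal regions. In 425 clusters at least 5 regions stayed under 50%.

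tRNA genes were found in few clusters. Member regions overlapped 72 tRNA genes of the RefSeq annotation, which serve 19 amino acids, in 69 regions of 18 clusters. Of all 150 autosomal distal shared regions over tRNA genes, 46.0% were members. The share of regions over a tRNA gene was 2.79% of members (exact 95% interval 2.18% to 3.52%), against 0.306% in groups of 2 to 4, 0.0743% of lone regions and 0.189% of all regions outside clusters (0.150% to 0.235%). The rule keeps dense runs, and tRNA genes often lie in runs, so this contrast follows at least in part from the rule. The intervals count regions as separate, though the 69 lay in 18 clusters. Of the 69 regions, 30 lay on chromosome 13. In 10 of the 18 clusters over 50% of the regions lay over tRNA genes. The count of 69 ran between 28 and 124 under the other settings tried, with 1 exception: it was 0 when 500 bp around RefSeq starts was also removed, since the starts of the tRNA genes are among them.

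The 10 clusters in which most regions lay over tRNA genes differed in length. The run near Zfp322a spanned 65.5 kb, and the other 9 spanned between 3.96 and 20.7 kb, against a median of 20.3 kb over all clusters. At chr3:96497701-96501660 the cluster of 5 regions, each over a tRNA gene, was 3.96 kb long and summed to 9.32 in replicate 1 and 17.1 in replicate 2. The cluster of n-TWcca7, at chr11:69035981-69041920, had 7 regions in 5.94 kb, 6 of them over tRNA genes, and summed to 13 and 24.8. The cluster of n-TKctt29, at chr19:12002225-12012560, had 9 regions in 10.3 kb and summed to 11.5 and 21.8. At chr13:21158901-21173360, 6.08 kb from Trim27, 6 of 10 regions lay over tRNA genes, and the sums were 10.3 and 18.0.

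Members over tRNA genes had a median value of 1.39 in replicate 1 and 2.79 in replicate 2, against 1.02 and 1.42 for the 2403 other members. All 69 were higher in replicate 2, against 2032 of the 2403 other members. After the difference was centred on the median of all distal regions 66 of the 69 stayed so, against 1214 of the 2403. Their median centred log2 difference (replicate 1 minus replicate 2) was -0.50, against -0.01 for the other members. A footprint, a short stretch inside an open region that is protected from cutting, was found in 100% of them in replicate 1 and 98.6% in replicate 2, against 95.5% and 93.5% of the other members. The letters GTTCGANNC, part of the B box inside tRNA genes, were searched after these values were seen. They stood on either strand in 81.2% of the 69 regions, against 0.458% of other members, 0.379% of distal regions outside clusters and 0.674% of all 64789 shared regions. Since the B box is part of a tRNA gene, this contrast follows from how the 69 regions were chosen. On average 18.5% of the 32-base words of the tRNA regions occurred elsewhere in the assembly, and 1 of the 69 passed 50%. Whether gene copies or depth take part in the difference between libraries was not tested.

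**Figure D4:**
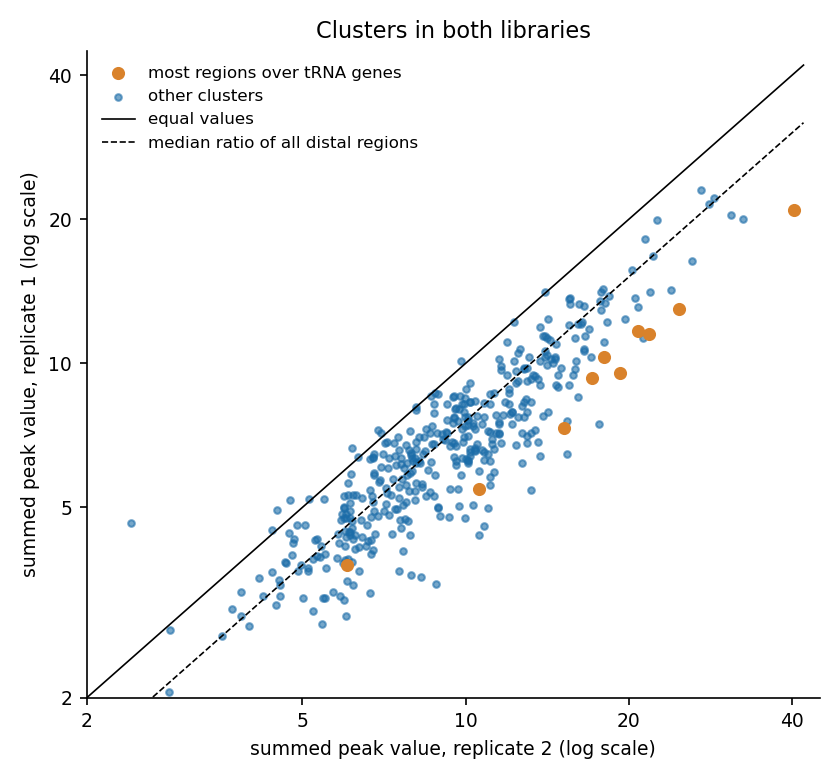
Summed peak value of the 429 clusters in replicate 1 against replicate 2 (both log scales), with the 10 clusters in which most regions lie over tRNA genes in orange. The solid line marks equal values and the dashed line the median ratio of all distal regions; the orange points lie below the dashed line, at centred log2 differences between -0.65 and -0.27.

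The libraries ranked the clusters alike. Spearman's correlation of the summed values over the 429 clusters was 0.88, given as a description, since clusters share the libraries and their depth. Both sums of a cluster also run over the same regions, so its number of regions moves both together. The part of this in the correlation and in the overlaps that follow was not tested. The 10 highest clusters of each library had 8 in common, and the 43 highest had 33. The median cluster was 1.38-fold higher in replicate 2, and 418 clusters had the higher sum there. After centring, the median log2 difference was -0.06 with an SD of 0.28 over clusters, and 428 of 429 lay within 1 log2 unit. With 1 library on each side no difference could be tested.

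Relative to replicate 2, replicate 1 was highest at chr4:143985281-143988420, near Pramef17, with sums of 4.64 in replicate 1 and 2.41 in replicate 2 and a centred log2 difference of 1.35. All 5 regions there were wholly repeat sequence, and 91.5% of their 32-base words occurred elsewhere in the assembly; the part of such copies in the difference was not tested. The next was at chr11:43092161-43099360, 50.5 kb from Atp10b (4.94 and 4.49, centred 0.54). Replicate 2 was relatively highest at chr10:61331161-61344280 in Pald1, with sums of 3.46 in replicate 1 and 8.81 in replicate 2 (centred -0.94). It was followed by chr9:120570061-120603100, 1.20 kb from Rpl14, with 5.44 and 13.2, and chr5:77459881-77478038, 51.8 kb from Igfbp7, with 4.37 and 10.6 (both -0.87). None of these 3 held a tRNA gene or sequence found elsewhere in the assembly at the length tested.

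Of 20807 autosomal protein-coding genes 447 (2.15%) had a cluster. Either a member region lay in the gene's body or, where a cluster touched no coding gene, the gene had the nearest coding start site. This share of 2.15% is the background for the counts by list below. These genes were long, with a median of 47.5 kb against 17.6 kb for all genes. The share with a cluster was 0.947% for genes under 10 kb and 6.61% for genes of 200 kb or more. An open promoter in both libraries was found at 346 of the 447 genes (77.4%, exact 95% interval 73.2% to 81.2%), against 59.1% of all genes (58.4% to 59.7%). A peak at any start site of a gene was enough, and cluster genes had a median of 4 start sites against 3 for all genes. The part of this in the difference was not tested. Among genes of 50 kb or longer the open share was 87.0% against 79.8%, and among shorter genes 68.5% against 52.9%.

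Genes of the lists had clusters in small numbers. Over the 20 lists, which include housekeeping, hepatocyte and striated muscle genes, 25 of 307 autosomal coding genes (8.14%) had one. Of all genes 2.15% did. Of the list genes of 50 kb or longer 16 of 157 (10.2%) had one, against 4.49% of all genes of that length. The lists were chosen with earlier results of these data known, and these shares were not tested. Markers of excitatory cortical neurons had 3 of 17, inhibitory markers 1 of 17, pan-neuronal genes 1 of 17 and activity-regulated genes 1 of 14. Glutamate receptor genes had 2 of 18, synaptic adhesion and guidance genes 2 of 20, spine and cytoskeleton genes 3 of 16, cyclic nucleotide genes 2 of 17 and channel genes 1 of 18. Forebrain transcription factors had 1 of 18, circadian and thyroid-hormone nuclear factors 2 of 14, and housekeeping genes 2 of 13. The receptor, adhesion, spine, cyclic nucleotide, channel and forebrain factor lists hold long genes, with median lengths between 258 and 584 kb. Of all genes of 200 kb or more, 6.61% had a cluster, so that 2.15% is a low background for these lists. Astrocyte genes had 1 of 16, oligodendrocyte genes 1 of 15, microglial genes 1 of 18, endothelial and mural genes 1 of 16 and striatal genes 1 of 10. Oligodendrocyte precursor genes (0 of 10), hepatocyte genes (0 of 14) and striated muscle genes (0 of 17) had none.

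The excitatory genes with clusters were Mef2c, Camk2a and Tbr1. Mef2c encodes a transcription factor of neurons and muscle. Its cluster of 7 regions at chr13:83713641-83745280 lay beyond the gene, 60.8 kb from the nearest protein-coding start site. Starts of noncoding transcripts were not counted in this distance. The values in genomic order were 0.358, 3.65, 0.636, 0.591, 1.77, 2.26 and 3.61 in replicate 1 and 0.544, 4.30, 0.892, 0.678, 2.19, 3.39 and 3.88 in replicate 2. The second and the last region were the strongest in both libraries, and 3 regions were under 1 in both. Camk2a encodes the alpha subunit of the kinase CaMKII of excitatory synapses. Its cluster at chr18:60918981-60947320 had 6 regions, 4 of them in the gene, with 3.07, 1.33, 2.37, 2.03, 2.67 and 1.73 in replicate 1 and 2.87, 1.84, 3.76, 2.48, 3.07 and 2.46 in replicate 2. Tbr1, a factor of deep-layer neurons, had 6 weak regions at chr2:61803461-61818546, between 0.417 and 1.16 in replicate 1 and between 0.642 and 1.44 in replicate 2. Slc17a7 had no cluster.

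Other neuronal genes had clusters mostly inside the gene body. In Nav2, which encodes a neuron navigator of neurite outgrowth, 9 intronic regions at chr7:49247701-49288534 summed to 13.1 in replicate 1 and 20.8 in replicate 2. Shank2, a postsynaptic scaffold gene, had a pair of clusters of 6 regions each, which summed to 5.46 and 9.37 at chr7:144204332-144217480 and to 6.66 and 6.17 at chr7:144235521-144251586, in replicates 1 and 2. The second pair of sums ran against the general shift between the libraries, with a centred log2 difference of 0.51 against -0.38 for the first. Ank3, the gene of ankyrin-G at the axon initial segment, had 5 regions (5.40 and 8.08). Nrxn2, a presynaptic adhesion gene, had 6 (10.4 and 14.1), and Ptprd, a receptor phosphatase of synapse formation, had 5 (6.30 and 6.65). The splicing factor gene Rbfox1 had 5 (3.95 and 5.32).

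Among receptor and signalling genes, Gria1, an AMPA receptor subunit, had 5 intronic regions at chr11:57030541-57044440 (6.92 and 9.16 in replicates 1 and 2). Grik5, a kainate receptor subunit, had 5 in its body at chr7:25030161-25047691 (5.0 and 8.89) and 1 of a further 7 at chr7:25006676-25010927 (9.47 and 14.8). Pde10a, a phosphodiesterase gene prominent in striatum, had 5 regions in its body (4.52 and 6.18) and 5 just before it (6.79 and 10.5), and Pde4a had 1 of 6 (10.1 and 9.80). The activity-induced AP-1 gene Fosb had 3 of the 8 regions at chr7:19295921-19337378, whose sums of 16.4 and 26.2 were among the 10 highest, and the first of the 8, in an exon of Rtn2, had 2.77 and 7.23. Junb and Fos had none.

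The clusters of glial, vascular and nuclear-factor genes differed in strength. That of Nr1d1, given above, was the strongest named from these lists, at 20.4 in replicate 1 and 30.9 in replicate 2. Zbtb16, a zinc-finger transcription factor gene, had 5 intronic regions at chr9:48723581-48740460 with 2.47, 2.57, 2.08, 5.36 and 1.63 in replicate 1 and 4.18, 2.97, 2.51, 5.55 and 2.62 in replicate 2. They summed to 14.1 and 17.8, above the upper quartile of all clusters in both libraries (8.47 and 12.4). Rxra, a nuclear receptor gene, had 4 of 6 regions (7.06 and 13). Mobp, a myelin gene, had 3 of 6 (6.20 and 12.7), and had no shared promoter peak. The microglial receptor gene Cx3cr1 held 6 regions in its annotated body (7.91 and 12.2), with a promoter peak of 0.263 in replicate 1 only. Cdh5, the gene of endothelial cadherin, had the nearest coding start, 50.4 kb from 7 regions (7.12 and 11.5). That of Ntm, an adhesion gene of the astrocyte list, lay 171 kb from 6 regions (6.51 and 7.94). Such distant assignments rest on nearness alone.

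Repeated clusters in 1 gene were uncommon, and 21 genes had 2 or more. The gene model Gm20388, which is 4435 kb long and runs over other genes, had 4. Msra, which encodes a methionine sulfoxide reductase, had 3 clusters with 17 member regions in its 333 kb, at chr14:64122625-64455903. Gas7, Gramd1b and Gse1 had 2 clusters and 13 regions each, and both clusters of Gse1 also fell under Gm20388.

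Members had higher peak values than the other distal regions, by a similar factor in both libraries. The median was 1.04 in members, against 0.815 in groups of 2 to 4, 0.686 in lone regions and 0.746 in all regions outside clusters, in replicate 1. In replicate 2 the medians were 1.44 in members, 1.15 in groups of 2 to 4, 0.954 in lone regions and 1.05 in all outside clusters. The log2 difference of the medians, members minus all others, was 0.479 in replicate 1 and 0.448 in replicate 2, a mean of 0.46 ± 0.021 (SD, n = 2). The quartiles of the classes overlapped widely (0.736 and 1.53 in members, against 0.537 and 1.08 outside clusters, in replicate 1). The values come from the peaks that chose the members, and the difference was not tested. It fell to 0.23 when the weaker 50% of peaks was left out beforehand.

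Members were also richer in G and C. Their median GC content was 52.6%, against 50% in groups of 2 to 4, 48.0% in lone regions and 49.0% outside clusters. Members had the higher median within all 4 quartile bins of peak value in both libraries, for example 53.5% against 51.4% in the highest bin of replicate 1 and 51.4% against 46.7% in the lowest. A RefSeq gene start that the GENCODE rule had not removed lay within 500 bp of 210 members (8.5%), against 3.42% of the others. Over the remaining 2262 members and 41309 others the medians were 52.5% and 48.9%. Repeat sequence took a mean of 8.72% of a member and 9.17% of the other regions. Members lay nearer to coding start sites, at a median of 17.5 kb against 28.4 kb.

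**Figure D5:**
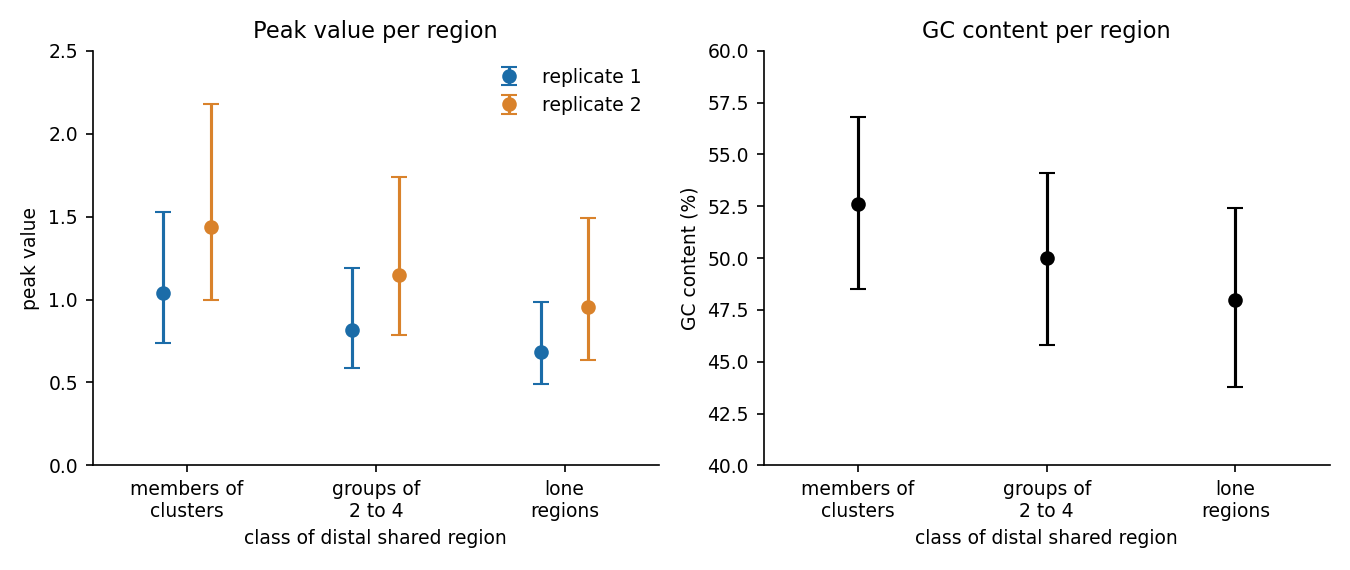
Median and quartiles (bars) of peak value by library (left) and of GC content in percent (right) for members of clusters, regions in groups of 2 to 4 and lone regions. Both medians descend from members to lone regions, 1.04, 0.815 and 0.686 for the peak value in replicate 1 and 52.6%, 50% and 48.0% for GC content, while the quartiles overlap.

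Position relative to genes differed little. Introns held 41.8% of members against 44.8% of the other distal regions, and intergenic sequence 53.1% against 50.4%. The sign of the intron difference depended on the rule: it was -2.93 percentage points, 0.40 without replicate 1, 2.35 without replicate 2, 5.53 with the longer peak list and 0.64 when RefSeq starts were also removed.

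Footprints were about as common in members as elsewhere. At least 1 was found in 95.7% of members and 95.7% of the other distal regions in replicate 1, and in 93.6% and 92.4% in replicate 2. The difference was 0.61 ± 0.891 percentage points (SD, n = 2), smaller than the spread between the libraries. Per kb, members had 11.3 footprints in replicate 1 and 11.4 in replicate 2, against 10.9 and 10.4 in the other regions. At like peak values the share was not higher in members: in the lowest quartile bin 82.1% of members and 89.6% of others had a footprint in replicate 1, and 71.8% and 77.3% in replicate 2.

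The 12 searched motifs, counted on both strands as exact matches, stood in similar shares of members and other distal regions, with 3 exceptions by their exact 95% intervals. The intervals count neighbouring regions as separate and were not corrected for the 12 motifs. Shares are per region, and members were wider, at a median of 240 bp against 220 bp. AP-1 letters, bound by Fos and Jun dimers, had the lower share in members, at 15.7% (14.2% to 17.1%) against 18.2% (17.9% to 18.6%). RFX letters, bound by RFX factors, stood in 2.10% (1.57% to 2.75%) against 1.32% (1.22% to 1.44%). The cyclic AMP response element (CRE, TGACGTCA), bound by CREB, stood in 1.17% (0.787% to 1.68%) against 0.517% (0.451% to 0.589%), which is 29 members. Matches per kb in members and others were 0.663 and 0.855 for AP-1, 0.0844 and 0.0584 for RFX, and 0.0469 and 0.0215 for CRE. Away from RefSeq starts the shares were 2.25% against 1.30% for RFX and 1.15% against 0.494% for CRE, and 16.4% against 18.4% for AP-1, whose intervals then met. Among all shared regions, promoters included, AP-1 stood in 14.6%, RFX in 1.28% and CRE in 1.33%. As a control for composition, the same letters were searched reversed but not complemented. Reversed AP-1 letters stood in 4.94% of members and 6.47% of others, so that they too had the lower share in members. For RFX the reversed shares were 0.0405% and 0.0327%, and for CRE 0.930% and 0.956%. GC content differs between the classes, and its part in these shares was not tested.

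The intervals of the remaining motifs overlapped between the classes. ETS letters (CCGGAAGT) stood in 0.607% of members (0.340% to 0.999%) and 0.327% of others (0.275% to 0.386%). The neuronal E-box stood in 16.6% of members and 16.4% of others, NFI letters in 9.55% and 10%, MEF2 letters (TAAAAATAG) in 1.21% and 1.25%, and CTCF letters (CCACNAGGG), bound by the insulator protein CTCF, in 3.07% and 2.96%. Per kb the order of the E-box and CTCF turned, at 0.703 matches in members and 0.729 in others for the E-box and 0.119 and 0.121 for CTCF. SOX letters (AACAATGG) stood in 0.647% and 0.627%, EGR letters (GCGTGGGCG) in 0.445% and 0.271%, ROR letters (ANTAGGTCA) in 0.364% and 0.528%, and NRF1 letters (GCGCATGCG) in 0.364% and 0.278%. The shares over all shared regions were 13.3% for the E-box, 8.63% for NFI, 0.996% for MEF2, 2.72% for CTCF, 0.574% for SOX, 0.639% for EGR, 0.438% for ROR, 2.04% for ETS and 1.11% for NRF1.

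The share of CTCF letters that lay inside footprints was lower in members in both libraries. Of the 76 matches in members 36 lay wholly inside a footprint in replicate 1 (47.4%, exact 95% interval 35.8% to 59.2%) and 41 in replicate 2 (53.9%, 42.1% to 65.5%). Of the 1277 matches in other distal regions 61.9% (59.2% to 64.6%) did in replicate 1 and 69.3% (66.7% to 71.8%) in replicate 2. The intervals just met in replicate 1 and stood apart in replicate 2. For RFX the shares were 50% and 66.7% in members, against 47.8% and 49.3% outside, in replicates 1 and 2, and for AP-1 3.77% and 7.78% against 6.88% and 8.73%.

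Bases between the members of a cluster also lay under FDR intervals in a larger share than the autosomes at large. The intervals come from the same libraries as the peaks, and the gaps lie beside peaks by the rule. The larger share is therefore given as a description, with no test. Intervals with a false discovery rate (FDR) under 0.05 covered 5.23% of the bases between members outside peak regions in replicate 1 and 5.97% in replicate 2. In gaps of groups of 2 to 4 it was 4.23% and 5.17%, and over the autosomes outside peak regions 0.845% and 1.00%. The share fell with the length of the gap. In gaps under 1000 bp it was 42.7% in members and 37.8% in groups of 2 to 4 in replicate 1, and 53.2% and 48.5% in replicate 2. In gaps of 5000 bp or more it was 3.01% and 2.69% in replicate 1 and 3.32% and 3.16% in replicate 2.

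At the border of the rule, clusters of 5 regions and groups of 4 could be equally strong. The 3 strongest clusters of 5 were the one beside Sfi1 (19.9 and 22.5 in replicates 1 and 2), the one at chr4:155216181-155246960 near Ski, a corepressor gene (13.8 and 18.4), and the one in Zbtb16 (14.1 and 17.8). The 3 strongest groups of 4, just outside, lay at chr13:58177601-58189720 over Ubqln1 (18.0 and 16.2), chr10:81551696-81571860 over Aes (11.2 and 15.6) and chr2:28413001-28420200, 26.6 kb from Ppp1r26 (8.39 and 17.6). These clusters and groups were picked for the highest sums, so they cannot show how clusters of 5 and groups of 4 compare as a whole. Over all regions the median peak value was 1.04 in members and 0.815 in groups of 2 to 4 in replicate 1. In replicate 2 it was 1.44 and 1.15.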

How the data were processed

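DNase-seq peaks, footprints and FDR intervals of 2 libraries were used, in mm10 coordinates per the labels. Peak values are a signal that the authors deposited per peak, and the sources used here do not give its normalization, the peak caller or the aligner. Footprints carry 1 deposited p-value threshold (0.01), and the FDR intervals a deposited q-value, listed only under 0.05. Depth was inferred from the steps of the deposited signal, within a tolerance of 0.05 steps.

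From these files, regions were merged and stitched as the report describes, with overlap of at least 1 bp. A region's value was that of its strongest peak, and a cluster's sum added all of its peaks. Differences between libraries were centred on the median log2 ratio of all autosomal distal shared regions. Annotation came from GENCODE M21 and RefSeq GRCm38. A 32-base word counted as found elsewhere when it occurred more than once in the assembly on either strand. The reference is C57BL/6J; the sources used here do not say how CAST/EiJ reads were handled, and its effect was not tested. The stitching was tested on simulated data with known groups. Python 3.11.15, NumPy 2.4.6, pandas 2.3.3 and SciPy 1.17.1 were used.

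The members, gene lists and motifs were chosen with earlier results of these data known. Named clusters were the 10 with most regions, the 10 with the highest mean sum, the 5 longest, the 3 most unequal in each direction, and 3 on each side of the size limit. Genes were named from the lists (up to 4 with a cluster and 2 without) and as the 5 with most clusters. Features outside this rule were chosen after their values were seen. A few genes, clusters and regions within it are not reported here. With 1 group no difference between conditions was tested. Shares carry exact 95% binomial intervals over regions, which cover counting error only.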

Additional observations from a re-analysis of the deposited data

How the results depend on the processing

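No paired analysis was possible because the series has 1 group. The 429 clusters became 1992 with the longer peak list, 155 with the stronger 50% of peaks, 142 and 1378 with the largest gap at 50% and 200% of its length, 1154 and 34 with at least 4 and 8 regions, 283 with 2000 bp around start sites, and between 1141 and 1335 with 1 library left out. The members' share (5.46%) became 16.2% with the longer list, 1.72% and 19.7% with the smaller and larger gap, 11.9% and 0.69% with 4 and 8 regions, and 11.2% to 13.4% with 1 library. The median span (20.3 kb) became 22.8 kb with the longer list, 21.6 kb with stronger peaks, 10.8 and 48.2 kb with the gaps, 16.3 and 33.7 kb with 4 and 8 regions, 22.3 kb with pieces within 100 bp merged, and 22.2 kb with RefSeq starts removed. These follow from how each setting is built.

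The log2 value difference (0.46) stayed positive, at 0.23 with stronger peaks, 0.49 and 0.43 with the gaps, 0.41 and 0.68 with 4 and 8 regions, and 0.35 to 0.36 with 1 library. The GC difference (3.59 points) stayed positive, at 3.15 with the longer list, 3.33 with stronger peaks, 4.24 and 3.14 with the gaps, 3.0 and 5.07 with 4 and 8 regions, 3.03 with 2000 bp, and 3.04 to 3.31 with 1 library. The footprint difference (0.61 points) had no stable sign, at 5.24 with the longer list, -0.67 with stronger peaks, -1.22 and 1.67 with the gaps, 2.07 with 8 regions, and -2.14 to 0.78 with 1 library. The intron difference (-2.93 points) was -9.64 with the smaller gap and -14.8 with 8 regions, and turned to 5.53 with the longer list, 5.23 with the larger gap, 0.81 with 4 regions, 0.64 with RefSeq starts removed, and 0.40 to 2.35 with 1 library; the cause was not tested. The open-promoter difference (18.3 points) was 23.8 with 8 regions and 18.1 to 21.7 with 1 library. Without centring the replicate difference was -0.46 on the log2 scale.

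Merging pieces, removing RefSeq starts and leaving out all-repeat regions were chosen after seeing the data, as was scoring each region by its strongest peak, which gave -0.05 against -0.06. The differences in motif share kept their sign under every setting run, at -5.03 to -0.53 points for AP-1, 0.43 to 1.54 for RFX and 0.24 to 1.26 for CRE. With 2 libraries no setting can be tested, and what depth limits was not tested.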
